A study of Mus musculus with 6 samples.

Results

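Of 22086 genes with a matched transcript, 143 had ribosome-bound transcripts that were lower in all Cx43KO libraries than in any of the Cx43FL libraries, with a mean of at most 0.4 times that in Cx43FL and a level of at least 5 CPM (counts per 1000000 counts) there. Ribosome-bound mRNAs of astrocytes were recovered from whole hippocampi of 6-week-old mice by translating ribosome affinity purification (TRAP) and sequenced, with 3 libraries per genotype. All mice carried the Aldh1l1 transgene that tags the ribosomal protein L10a with GFP in astrocytes, and both alleles of the Cx43 gene Gja1 were floxed in both genotypes (Cx43 fl/fl). Cx43KO mice carried in addition a Gfap Cre transgene, whose promoter sets which cells delete the gene, and Cx43FL littermates had no Cre. No other strain detail is given in the labels. The labels do not say whether a library was made from 1 animal or several, so that the spread between libraries may be partly technical. Since the members were chosen by this contrast, their levels are described here and carry no test of it.

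For each gene the transcript with most counts in all 6 libraries together was taken, and CPM is its count per 1000000 counts on the transcripts so taken. A gene was kept when its mean in Cx43FL was at least 5 CPM, its highest Cx43KO value lay below its lowest Cx43FL value, and its mean in Cx43KO was at most 0.4 times that in Cx43FL. Of the 10910 genes at 5 CPM or more in Cx43FL, 9.41% had every Cx43KO library below every Cx43FL library, 2.04% had the ratio whatever the overlap, and the 143 members were 1.31%. In the other direction, 6.83% of the 10910 genes had every Cx43KO library above every Cx43FL library, and the rule turned around was met by 379 of 11353 genes of at least 5 CPM in Cx43KO (3.34%).

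Connexin 43 is the main gap junction protein of astrocytes. It couples astrocytes into networks and also acts as a hemichannel and through its intracellular tail. Astrocytes take part in brain immunity, and Toll-like receptors, which sense microbial and damage molecules, signal through the adaptor Myd88 to the NFκB pathway. In resting cells NFκB is held in the cytoplasm by inhibitory IκB proteins, which the IκB kinases mark for degradation. Astrocytes also handle lipids, retinoids, polyamines and glutathione, and express adrenergic receptors through which noradrenaline raises cAMP.

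Counts on genes ranged from 14787303 to 15391214 in Cx43FL and from 16056347 to 34733473 in Cx43KO, so that 3 counts, taken as the floor, were worth 0.0864 to 0.203 CPM (a limit of counting only, as amplification makes several reads of a molecule). The targeted gene Gja1 was not lower in Cx43KO, with 94.4, 89.8 and 83.7 CPM in Cx43FL against 87.5, 102 and 88.6 CPM in Cx43KO. These are counts over the whole transcript, and they do not show whether the deleted exon was read. The 12 astrocyte markers had counts in every library, their summed level being 27293 to 31995 CPM in Cx43FL against 13707, 27561 and 35411 CPM in the Cx43KO libraries, by replicate number. Markers of other cells were also present: the 12 neuron markers summed to 2129 to 2844 CPM in Cx43FL against 3008 to 7489.6 CPM in Cx43KO, and the 6 ependymal or choroid plexus markers to 9972, 456 and 15286 CPM in Cx43FL against 20277 to 32633 CPM in Cx43KO. The 9 oligodendrocyte markers summed to 636 to 1055 CPM and 609 to 2813 CPM, the 10 microglia markers to 28.7 to 50.7 CPM and 86.7 to 128.7 CPM, the 6 oligodendrocyte precursor markers to 170.2 to 191.9 CPM and 177.1 to 268 CPM, the 8 endothelial markers to 5.96 to 10.5 CPM and 5.42 to 22.5 CPM, and the 6 mural markers to 25.99 to 34.6 CPM and 27.9 to 86.4 CPM. The mural marker Kcnj8 had no count in any library. Cx43KO replicate 1 had the lowest astrocyte sum of all libraries. It had the highest sum for each other cell type except the oligodendrocyte precursors. Cx43FL replicate 2 had the lowest ependymal or choroid plexus sum, and both libraries thus stood apart. Of the 69 marker genes, 0 were members, against 1.31% of the 10910 genes of at least 5 CPM in Cx43FL. Not all markers reached this level, and beside so small a share nothing is read from the 0. The part of these cells in the results was not tested. The numbers of the libraries form one range for each genotype, so that a library batch and the genotype cannot be told apart. In such bulk samples, fewer cells of a type and less RNA per cell cannot be told apart either.

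**Figure D1:**
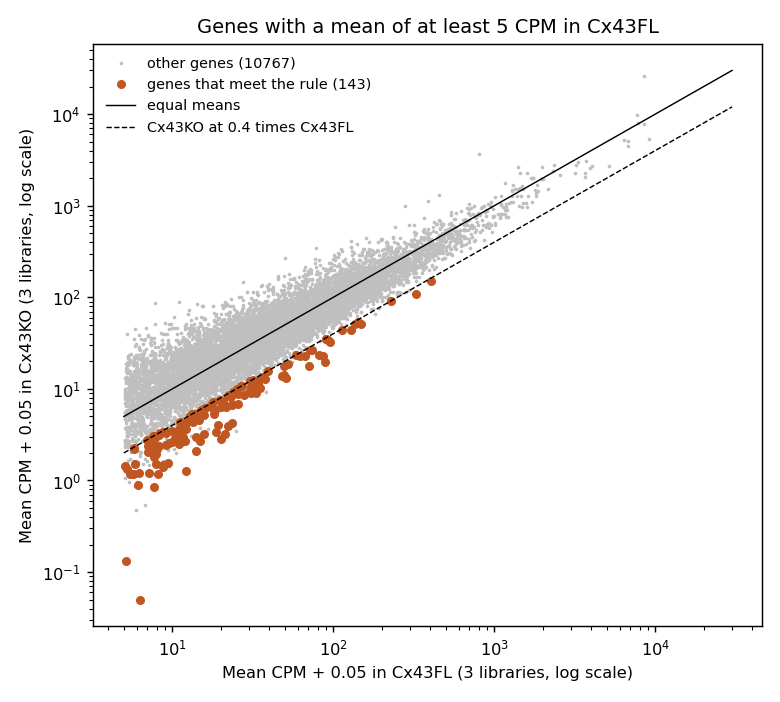
Mean CPM plus 0.05 of each gene in Cx43FL (x axis) against Cx43KO (y axis), both on log scales, for the 10910 genes of at least 5 CPM in Cx43FL. Orange points are the 143 members, grey points the other 10767 genes, the solid line marks equal means and the dashed line a Cx43KO mean of 0.4 times the Cx43FL mean. The members lie on or under the dashed line at all levels up to 405 CPM, and 120 of them below 50 CPM in Cx43FL.

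Among the 143 members the mean level in Cx43FL ranged from 5.07 to 405 CPM (median 15.8), while the median over all 10910 genes was 36.0 CPM. The rule selected 43 of 1421 genes between 5 and 10 CPM (3.03%), 77 of 5151 genes between 10 and 50 CPM (1.49%) and 23 of 4338 genes at 50 CPM or more (0.530%). The ratio of Cx43KO to Cx43FL was 0.318 in the median. It was at most 0.1 in 3 members, at most 0.2 in 20, and above 0.3 in 79. The lowest Cx43FL library exceeded the highest Cx43KO library by more than 2 times in 21 members and by less than 1.5 times in 70. On the log2 scale of the fit across all genes (edgeR), the median member was at -1.62 and the median of all fitted genes at 0.071. No member had an adjusted p below 0.05 in the edgeR quasi-likelihood test (0 of 142 fitted, against 0.0% of all 13545 genes), and 89 had an unadjusted p below 0.05 (2.67% of all genes). DESeq2 called 16 members without a prior (0.202% of all genes) and 14 with its normal prior (0.124%), or 124 and 123 at an unadjusted p below 0.05 (3.57% and 3.14% of all genes). Since the rule used this contrast, nothing is read from these counts.

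The difference was not of the same size in all libraries. The median member lay at -2.31 on the log2 scale below the Cx43FL mean in Cx43KO replicate 1, at -1.41 in replicate 2 and at -1.38 in replicate 3 (0.5 CPM added), and the median of all 10910 genes at -0.09, -0.02 and -0.15. Cx43KO replicate 1 was the lowest Cx43KO library for 91 members (63.6%, against 40.7% of all 10910 genes). Cx43FL replicate 2 was the highest Cx43FL library for 87 members (60.8%, against 37.7%), and Cx43FL replicate 3 the lowest for 90 (62.9%, against 31.4%). The rule used these same values, so these shares are a description. By replicate number, the summed level of the members was 4745, 5901 and 3574 CPM in Cx43FL against 1044, 1716 and 1981 CPM in Cx43KO. Cx43KO replicate 1 and Cx43FL replicate 2 are those that stood apart by their marker sums, and Cx43FL replicate 3 was not among them. The part of these sums was not tested. Without Cx43KO replicate 1, 212 genes met the rule, 89 of them members. Without Cx43FL replicate 2, 170 genes met it, 93 of them members. The number rose by over 1.5 times without Cx43FL replicate 3 (252 genes), Cx43KO replicate 2 (347) or Cx43KO replicate 3 (343), and 53 genes met the rule whichever library was left out.

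**Figure D2:**
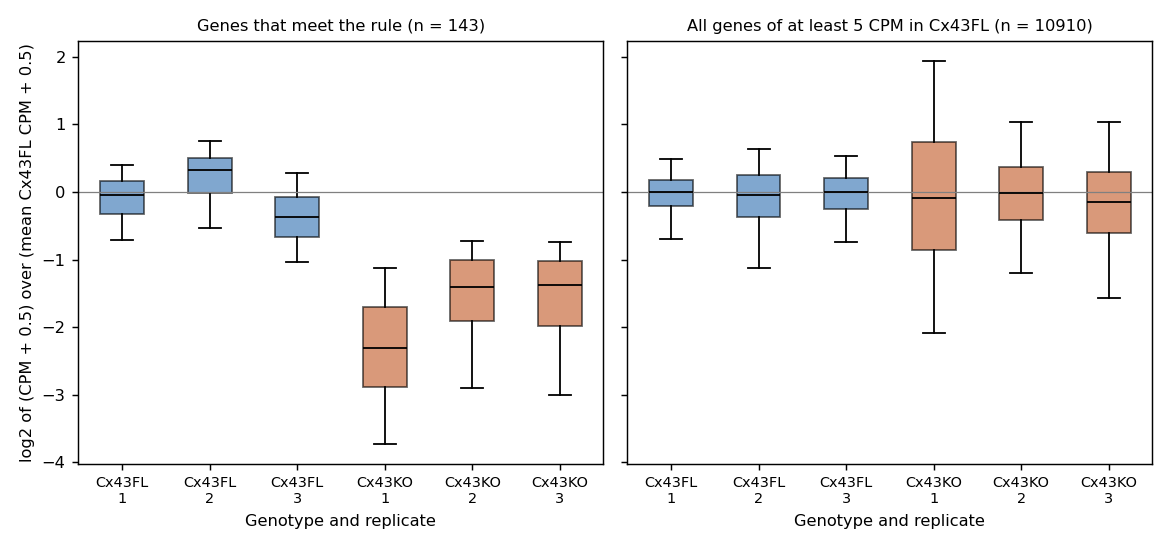
Boxes show, for each library, the log2 of CPM plus 0.5 over the mean Cx43FL CPM plus 0.5, for the 143 members (left) and all 10910 genes (right); lines are medians, boxes quartiles and whiskers the 5th and 95th percentiles. Among members Cx43KO replicate 1 has a median of -2.31 against -1.41 and -1.38 in the other Cx43KO libraries, while all genes are centred near 0 with a wide spread in Cx43KO replicate 1.

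Toll-like receptor signalling was represented by its receptor Tlr4, which recognizes lipopolysaccharide, and by Myd88, the adaptor of most Toll-like receptors. Values are given in the order of replicates 1 to 3. Tlr4 (chromosome 4, 66827584 to 66930284, plus strand, GRCm38) had 10.01, 13.2 and 4.77 CPM in Cx43FL against 1.12, 1.001 and 2.39 CPM in Cx43KO, from 148, 203 and 72 counts in Cx43FL against 18, 24 and 83 counts in Cx43KO. The Cx43KO mean was 16.1% of the Cx43FL mean, and the log2 fold change -2.58 (SE 0.90). All Cx43KO libraries lay near 1 to 2 CPM, while the Cx43FL libraries were spread, replicate 3 being the lowest. Myd88 (chromosome 9, 119335934 to 119341411, minus strand) had 22.8, 23.6 and 12.5 CPM in Cx43FL against 5.85, 7.26 and 9.24 CPM in Cx43KO, a mean of 37.96% and a log2 fold change of -1.36 (SE 0.57). It overlaps Acaa1a and Slc22a14 in the annotation, and reads from overlapping genes cannot be fully told apart here.

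The other genes of the pathway did not all lie lower. Of the 12 Toll-like receptor genes, only Tlr3, the receptor for double-stranded RNA, had a mean of 5 CPM or more beside Tlr4. Tlr3 had 109.8, 147 and 117 CPM in Cx43FL against 95.5, 112 and 169 CPM in Cx43KO, so that its genotypes overlapped. The co-receptors of Tlr4 were close to the floor or low, Cd14 having 1.62, 2.86 and 1.99 CPM in Cx43FL against 0.187, 0.376 and 1.09 CPM in Cx43KO and Ly96 1.96, 2.14 and 3.64 CPM in Cx43FL against 0.125, 4.21 and 4.03 CPM in Cx43KO. The adaptor Ticam1 and the kinases Irak2 and Irak4 also had every Cx43KO library below every Cx43FL library, with log2 fold changes of -0.42 (SE 0.33), -0.38 (SE 0.31) and -0.23 (SE 0.48), well short of the ratio. Tirap, which links Myd88 to Tlr4, overlapped between genotypes with 11.7, 20.7 and 21.5 CPM in Cx43FL against 11.9, 32.1 and 12.8 CPM in Cx43KO. Of the 23 genes in the list of receptors and adaptors, 9 reached 5 CPM in Cx43FL, 5 of these lay lower in every Cx43KO library, 0 lay higher, and the median log2 fold change of the 15 fitted genes was 0.03. Of all 10910 genes at this level, 9.41% lay lower in every Cx43KO library, 6.83% lay higher and 1.31% were members. These shares are the ones to set beside the counts of every list below, which were not tested.

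Downstream, the kinase Ikbkb (IKKβ) and the inhibitor Nfkbia (IκBα) were members. Ikbkb (chromosome 8, 22659212 to 22706589, minus strand) had 39.8, 36.8 and 25.8 CPM in Cx43FL against 5.73, 15.3 and 12.6 CPM in Cx43KO, a mean of 32.8% and a log2 fold change of -1.58 (SE 0.52). Of its 4 other transcripts at 5 CPM or more, 2 were separated in this way. A protein-coding one overlapped, with 22.7, 5.39 and 15.6 CPM in Cx43FL against 3.05, 7.22 and 4.46 CPM in Cx43KO. Nfkbia (chromosome 12, 55489410 to 55492647, minus strand) had 33.5, 33.3 and 28.01 CPM in Cx43FL against 6.91, 13.9 and 16.9 CPM in Cx43KO, a mean of 39.8% and a log2 fold change of -1.29 (SE 0.50). Ikbkb promotes and Nfkbia restrains the release of NFκB, and both were lowest in Cx43KO replicate 1. The other kinase subunits overlapped: Chuk had 72.6, 65.8 and 75.6 CPM in Cx43FL against 66.4, 55.3 and 37.9 CPM in Cx43KO, and Ikbkg 48.6, 61.9 and 48.1 CPM in Cx43FL against 76.2, 54.8 and 49.4 CPM in Cx43KO. The NFκB subunits themselves overlapped between genotypes, Rela having 25.6, 26.2 and 33.8 CPM in Cx43FL against 23.7, 40.2 and 41.2 CPM in Cx43KO and Nfkb1 16.2, 21.1 and 17.2 CPM in Cx43FL against 38.1, 10.4 and 24.4 CPM in Cx43KO. In the list of 17 NFκB pathway genes, written after the members were seen, 15 reached 5 CPM, 2 were members, 4 had every Cx43KO library lower (Nfkbib and Nfkbiz being the others), 0 had every library higher, and the median log2 fold change was -0.13. None of the 348 fitted genes of the family and pathway lists had an adjusted p below 0.05 in edgeR's test. Among the 301 of them that were not members, 9 lay lower and 9 higher at an unadjusted p below 0.05, against 2.67% and 5.66% of all genes. Of the listed genes that were not members, DESeq2 without a prior called 3 lower and 1 higher among 314 with an adjusted p (0.202% and 1.03% of all genes), and with its prior 2 lower and 1 higher among 308 (0.124% and 0.824%).

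**Figure D3:**
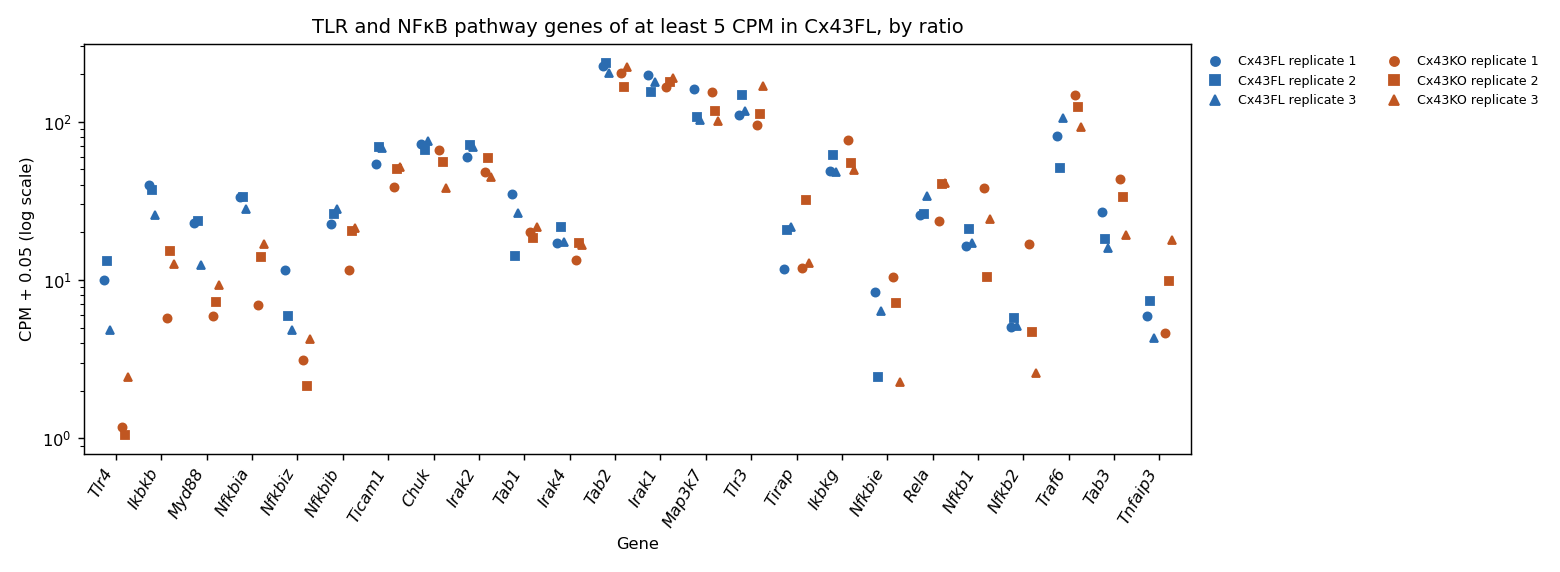
CPM plus 0.05 (log scale) in each library for the genes of the Toll-like receptor and NFκB lists with at least 5 CPM in Cx43FL, ordered by the ratio of Cx43KO to Cx43FL. Blue symbols are Cx43FL and orange symbols Cx43KO replicates. Tlr4, Ikbkb, Myd88 and Nfkbia stand at the left with separate genotypes, and the genotypes of Rela, Nfkb1, Irak1 and Tlr3 overlap.

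Since Nfkbia is itself a known target of NFκB and Fos and Adrb1 are members linked to cAMP signalling, the sequences upstream of their starts are shown, with that of Sptssa, one of the members with the most reads, for comparison. The 250 bases before each start are RefSeq sequence of GRCm38.p6, printed 5′ to 3′ on the strand of the gene, with the start as RefSeq gives it. The windows are those of Nfkbia (chr12:55492648-55492897, minus strand), Fos (chr12:85473640-85473889, plus strand), Adrb1 (chr19:56721867-56722116, plus strand) and Sptssa (chr12:54656573-54656822, minus strand). Capitals in Nfkbia mark the NF-kappaB site, which is GGG, any 5 bases and CC. Capitals in Fos and Adrb1 mark the cAMP response element half-site TGACG. Those in Fos also mark the TATA box TATAAA. In Sptssa they mark the CCAAT box. They mark there the GC box GGGCGG as well. Both strands were searched for each. Only the motifs named for a gene are marked in it, so an unmarked motif is not an absent one. With 50 bases after the start included, Sptssa also held 1 TGACG half-site and 2 NF-kappaB sites. Fos and Adrb1 each held 1 NF-kappaB site.
Nfkbia: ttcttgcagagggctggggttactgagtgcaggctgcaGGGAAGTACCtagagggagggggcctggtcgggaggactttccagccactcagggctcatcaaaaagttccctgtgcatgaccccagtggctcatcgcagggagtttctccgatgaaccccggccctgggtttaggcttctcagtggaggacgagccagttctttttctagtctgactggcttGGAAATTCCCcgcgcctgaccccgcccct
Fos: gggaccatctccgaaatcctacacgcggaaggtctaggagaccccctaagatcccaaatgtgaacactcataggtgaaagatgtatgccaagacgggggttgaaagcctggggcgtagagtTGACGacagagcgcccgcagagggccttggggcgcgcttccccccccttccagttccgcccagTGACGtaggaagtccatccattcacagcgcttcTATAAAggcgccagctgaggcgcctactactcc
Adrb1: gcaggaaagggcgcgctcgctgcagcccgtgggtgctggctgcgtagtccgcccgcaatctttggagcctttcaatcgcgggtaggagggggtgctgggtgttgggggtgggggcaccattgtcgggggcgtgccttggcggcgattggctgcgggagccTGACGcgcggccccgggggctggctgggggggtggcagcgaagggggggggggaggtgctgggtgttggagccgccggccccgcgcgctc
Sptssa: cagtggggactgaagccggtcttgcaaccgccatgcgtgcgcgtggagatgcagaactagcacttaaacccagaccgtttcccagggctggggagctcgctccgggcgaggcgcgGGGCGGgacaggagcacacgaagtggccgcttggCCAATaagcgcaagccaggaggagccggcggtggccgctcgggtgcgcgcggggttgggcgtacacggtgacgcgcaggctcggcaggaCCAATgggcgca
In Nfkbia the matches end 203 and 20 bases before the start, in Fos the half-sites end 125 and 62 and the TATA box 28 bases before it, and in Adrb1 the half-site ends 86 bases before it.

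A window of 300 bases, 250 before and 50 after the start, was found for 98 of the 143 members. No window was used for Tlr4 or Ikbkb. TATAAA was found in 14 of these windows (14.3%), against 6.16% of 8071 genes of at least 5 CPM and 13.6% of all 32851 windows. GGGCGG was in 54.1% of the members' windows, against 69.0% and 35.7%. The NF-kappaB site was in 61.2%, against 69.0% and 50.8%, and is thus common in any such window. The members' shares for the other motifs, searched on both strands, were 41.8% for CCAAT (38.4% and 37.4%), 4.08% for TGACGTCA (3.37% and 1.79%), 32.7% for its half-site TGACG (34.1% and 20.8%), 4.08% for CACGTG (10.7% and 7.15%) and 19.4% for CCGGAAG (19.9% and 8.86%). They were 1.02% for the NRF1 site (2.34% and 0.971%), 2.04% for AAGATGGCG (3.80% and 1.40%), 8.16% for TTCNNNGAA (6.36% and 8.30%), 6.12% for the ISRE core, in which 2 bases part GAAA from a second GAAA (2.66% and 3.44%), 12.2% for AGGTCA (10.8% and 16.3%) and 3.06% for the glucocorticoid response element, in which 3 bases part ACA from TGT and 1 base that from C (1.65% and 3.11%). TGACG lies within TGACGTCA. The windows of members had a median GC content of 58.7% against 62.0% in the 8071 genes. These shares are descriptions of letters, with no test.

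The 20 members with the lowest ratio held a receptor, secreted proteins, lipid droplet proteins and several genes of low level. Gh, which encodes growth hormone, had no count in any Cx43KO library and 6.898, 10.6 and 1.26 CPM in Cx43FL. Against the floor of 3 counts averaged over the Cx43KO libraries, it was at least 47.1-fold higher in Cx43FL. Bmp3, a secreted member of the BMP family, had 1.76, 0.5198 and 13.05 CPM in Cx43FL against 0.249, 0 and 0 CPM in Cx43KO, from 26, 8 and 197 counts in Cx43FL against 4, 0 and 0 counts in Cx43KO. Its Cx43FL mean rested on replicate 3, and edgeR's filter on low counts left it out of the fit.

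Adrb1, the β1 adrenergic receptor (chromosome 19, 56722199 to 56733113, plus strand), had 14.1, 19.6 and 2.91 CPM in Cx43FL against 0.249, 2.25 and 1.12 CPM in Cx43KO, a mean of 9.904% and a log2 fold change of -3.32 (SE 1.05). Its Cx43FL replicate 3 lay close to Cx43KO replicate 2, 1.29 times above it. The other adrenergic receptors at 5 CPM or more, Adra1a, Adra2a and Adra2c, overlapped between genotypes, Adra2a having 8.39, 21.1 and 18.5 CPM in Cx43FL against 5.54, 27.7 and 16.99 CPM in Cx43KO. Of the 13 receptors and regulators listed, 8 reached 5 CPM, 1 was a member, 0 others were separated in either direction, and the median log2 fold change of 9 fitted genes was 0.08.

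Hilpda, Plin4 and Angptl4 belong to lipid storage and use. Hilpda, a lipid droplet protein that inhibits the lipase Pnpla2, had 19.5, 16.8 and 8.41 CPM in Cx43FL against 0.872, 0.793 and 6.33 CPM in Cx43KO, a mean of 17.9%. Plin4, a perilipin that coats lipid droplets, had 3.31, 5.003 and 8.68 CPM in Cx43FL against 0.249, 1.59 and 1.55 CPM in Cx43KO, a mean of 19.9%. Angptl4, a secreted inhibitor of lipoprotein lipase, had 17.4, 18.1 and 11.8 CPM in Cx43FL against 0.249, 5.63 and 3.69 CPM in Cx43KO, a mean of 20.2%. All of them had below 1 CPM in Cx43KO replicate 1. The perilipin Plin2 did not share this, with 20.8, 7.797 and 16.7 CPM in Cx43FL against 36.6, 19.4 and 15.8 CPM in Cx43KO, nor did Plin3, with 63.1, 43.5 and 44.4 CPM in Cx43FL against 9.404, 42.3 and 74.2 CPM in Cx43KO. Of 16 lipid droplet genes listed, 11 reached 5 CPM, 1 was a member (Plin4), 2 lay lower in every Cx43KO library, 0 higher, and the median log2 fold change was 0.06. Among 14 target genes of PPAR receptors, listed after the members were seen, 3 were members, 4 of 11 lay lower, 0 higher, and the median was -0.11, the mitochondrial carrier Ucp2 being at 1.22 (SE 0.40) with overlapping libraries.

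Dsn1, a subunit of the MIS12 complex of the kinetochore (chromosome 2, 156995265 to 157007154, minus strand), had the widest gap between genotypes of the members with counts in Cx43KO (Gh had none there), 3.98-fold between its lowest Cx43FL and its highest Cx43KO library. It had 21.1, 30.5 and 18.7 CPM in Cx43FL against 3.67, 4.72 and 4.26 CPM in Cx43KO, a mean of 17.99% and a log2 fold change of -2.45 (SE 0.56). Its Cx43KO libraries were close to each other. Mis12, its partner, overlapped with 54.6, 72.8 and 45.04 CPM in Cx43FL against 47.1, 40.2 and 63.3 CPM in Cx43KO. Of 10 genes of the kinetochore network, 5 reached 5 CPM, 1 was a member, and 1, Zwint, had all Cx43KO libraries higher with 276, 266 and 268 CPM in Cx43FL against 301, 309 and 277 CPM in Cx43KO (median log2 fold change -0.16). Zw10, which recruits dynein to kinetochores and is also used in Golgi transport, had 10.96, 21.2 and 11.5 CPM in Cx43FL against 3.49, 8.55 and 1.64 CPM in Cx43KO. It was the only one of the 3 subunits of its complex at 5 CPM or more.
 
Several transcription regulators were among the lowest ratios. Sertad3, a SERTA domain coactivator, had 8.66, 7.41 and 6.82 CPM in Cx43FL against 0.187, 0.125 and 2.102 CPM in Cx43KO, a 3.25-fold gap. Zfp503, a zinc finger repressor known from striatal development, had 13.7, 33.2 and 19.3 CPM in Cx43FL against 4.11, 2.59 and 4.87 CPM in Cx43KO, a 2.81-fold gap. Zfp691, another zinc finger gene, had 8.93, 38.9 and 15.7 CPM in Cx43FL against 1.81, 4.09 and 3.63 CPM in Cx43KO, its Cx43FL replicate 2 lying well above the other Cx43FL libraries. Zfp503 and Zfp691 are among 9 members with the name of a zinc finger gene (6.29% of members, against 2.93% of the 10910 genes and 0.792% of the 379 genes higher in Cx43KO), whose mean levels in Cx43FL were 7.77 to 26.8 CPM and whose ratios were 0.150 to 0.398. Genes named Ccdc, for a coiled-coil domain, numbered 5 (3.50%, against 0.669% of the 10910 genes and 1.32% of those higher in Cx43KO).

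Among the other low ratios, Armc5, an armadillo repeat protein, had 6.15, 43.1 and 11.2 CPM in Cx43FL against 1.81, 4.59 and 2.07 CPM in Cx43KO, and Hps4, a subunit of the BLOC-3 complex for lysosome-related organelles, 7.101, 28.98 and 5.76 CPM in Cx43FL against 1.37, 1.59 and 3.196 CPM in Cx43KO. In both, Cx43FL replicate 2 was far above the other Cx43FL libraries, and the Cx43FL mean rests on it in large part. Rtp1, a chaperone of odorant receptors, had 24.7, 18.6 and 12.4 CPM in Cx43FL against 0.311, 8.85 and 0.806 CPM in Cx43KO. Wdr5b, a paralogue of the chromatin protein Wdr5, had 3.99, 3.898 and 18.1 CPM in Cx43FL against 1.49, 2.09 and 0.7198 CPM in Cx43KO, Cx43FL replicate 3 standing alone here. Serpinf2, the plasmin inhibitor α2-antiplasmin, had 16.03, 4.03 and 3.58 CPM in Cx43FL against 2.62, 0.626 and 1.15 CPM in Cx43KO. Spin2c, of the spindlin family, had 10.3, 3.703 and 4.37 CPM in Cx43FL against 1.81, 0.125 and 1.55 CPM in Cx43KO, Fam180a 3.99, 10.3 and 3.97 CPM in Cx43FL against 0.0623, 0.0835 and 2.36 CPM in Cx43KO, Cd164l2 9.197, 11.3 and 3.84 CPM in Cx43FL against 0.747, 2.46 and 0.144 CPM in Cx43KO, and Ccdc62 3.92, 13.4 and 4.17 CPM in Cx43FL against 0.374, 3.05 and 0.0576 CPM in Cx43KO. In Ccdc62, Cx43FL replicate 2 stood far above the other Cx43FL libraries. The one gene of the 20 not given with its values here has a clone-type name.

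**Figure D4:**
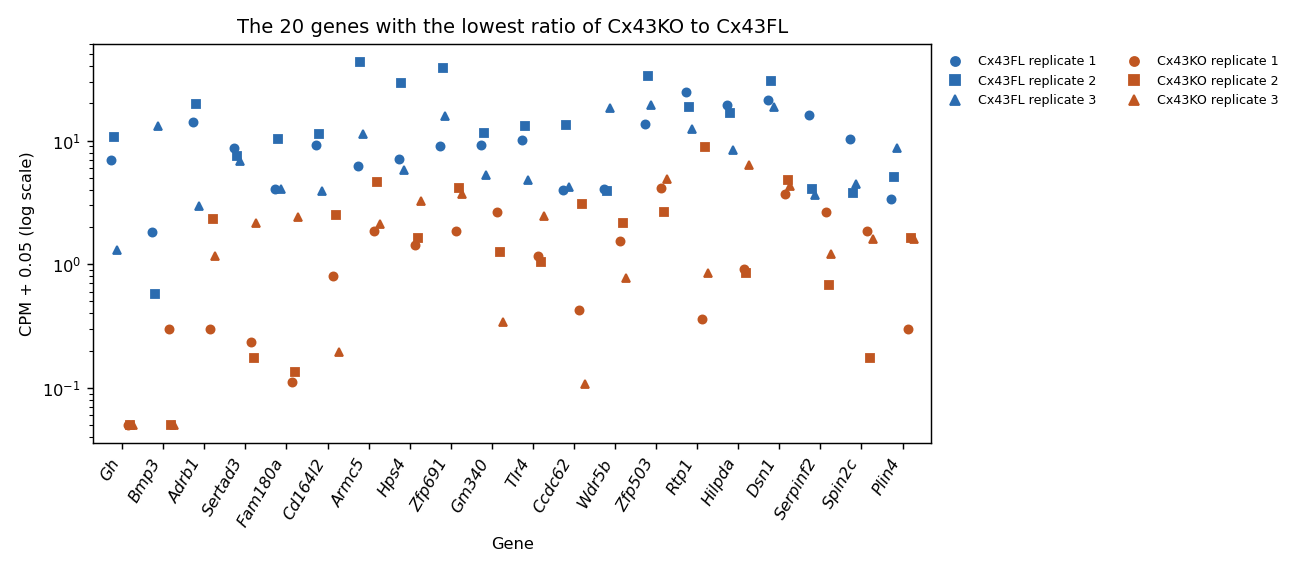
CPM plus 0.05 (log scale) in each library for the 20 members with the lowest ratio of Cx43KO to Cx43FL, in that order. Blue symbols are Cx43FL and orange symbols Cx43KO, and the shape gives the replicate. Dsn1, Sertad3 and Zfp503 have gaps of 2.81-fold or more between genotypes. The narrowest gaps are those of Ccdc62 and Adrb1 (1.29-fold each), followed by Hilpda (1.33-fold) and Armc5 (1.34-fold).

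The members with the most reads in Cx43FL were Sat1, Sptssa, Lysmd2, Gabarapl2, Yipf4, Rpl30, Ptma, H3f3a, Rnft1 and Cth. Reads grow with transcript length, and per kb of transcript the Cx43FL means ran from 21.4 CPM per kb in Rnft1 to 318 CPM per kb in Sat1. Sptssa, the small activating subunit of serine palmitoyltransferase, which starts sphingolipid synthesis, lies at chromosome 12, 54645392 to 54656573, minus strand. It had 377, 413 and 195 CPM in Cx43FL against 93.2, 117 and 118 CPM in Cx43KO, a mean of 33.3% and a log2 fold change of -1.56 (SE 0.34). Its Cx43KO libraries lay close together, and Cx43FL replicate 3 was the lowest of its genotype. Of the large subunits, Sptlc1 overlapped between genotypes with 10.5, 14.5 and 21.9 CPM in Cx43FL against 4.42, 11.02 and 11.3 CPM in Cx43KO, and Sptlc2 was higher in every Cx43KO library, with 12.4, 13.3 and 13.05 CPM in Cx43FL against 59.5, 24.5 and 36.5 CPM in Cx43KO. In the list of 17 genes of serine palmitoyltransferase and ceramide synthesis, 15 reached 5 CPM, 1 was a member, 4 had every Cx43KO library above every Cx43FL library (Sptlc2, Cers1, Cers2 and the desaturase Degs1), and the median log2 fold change was 0.29.

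Sat1, the spermidine/spermine acetyltransferase that starts polyamine breakdown, had 395, 573 and 247 CPM in Cx43FL against 67.8, 173 and 209.5 CPM in Cx43KO, a mean of 37.1% and a log2 fold change of -1.40 (SE 0.45). In another protein-coding transcript of Sat1 the genotypes overlapped, with 230, 326 and 150 CPM in Cx43FL against 47.0, 138 and 167 CPM in Cx43KO. Most of its other transcripts at 5 CPM or more overlapped in this way, while a further protein-coding one was separated. Arg2, the mitochondrial arginase that feeds polyamine synthesis, had 17.04, 39.5 and 12.5 CPM in Cx43FL against 5.61, 10.6 and 9.04 CPM in Cx43KO. Amd2, a copy of the gene of S-adenosylmethionine decarboxylase, had 11.5, 13.4 and 6.69 CPM in Cx43FL against 2.803, 3.17 and 3.37 CPM in Cx43KO, and since Amd1 is nearly identical its reads may be shared. Of 15 polyamine genes found, listed after the members were seen, 13 reached 5 CPM, 3 were members, 6 lay lower in every Cx43KO library and 0 higher, and the median log2 fold change was -0.46. Of all 10910 genes, 1.31% were members, 9.41% lay lower and 6.83% higher. The antizyme inhibitor Azin1 had 607, 516 and 601 CPM in Cx43FL against 297, 396 and 329.8 CPM in Cx43KO, and the antizyme Oaz1 71.1, 99.7 and 45.5 CPM in Cx43FL against 30.7, 43.1 and 40.2 CPM in Cx43KO. Odc1, the first enzyme of the pathway, overlapped with 69.2, 54.3 and 73.1 CPM in Cx43FL against 66.8, 64.8 and 47.3 CPM in Cx43KO.

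Gabarapl2, an ATG8 protein of autophagosomes, had 155, 196 and 93.4 CPM in Cx43FL against 29.4, 51.7 and 72.1 CPM in Cx43KO and a log2 fold change of -1.50 (SE 0.42). With a median of -0.21 over the family, the other 4 ATG8 genes were at -0.10 to -0.63, and 1 of them, Map1lc3b, had every Cx43KO library lower, with 731, 1038 and 667 CPM in Cx43FL against 391, 592 and 563 CPM in Cx43KO. Cth, the cystathionine γ-lyase that makes cysteine, had 106, 87.7 and 82.98 CPM in Cx43FL against 6.85, 42.9 and 51.6 CPM in Cx43KO, Cx43KO replicate 1 lying far below the others. Lysmd2 had 244, 281 and 159 CPM in Cx43FL against 64.4, 92.3 and 115 CPM in Cx43KO, the Golgi protein gene Yipf4 161, 155 and 111 CPM in Cx43FL against 32.3, 34.3 and 92.97 CPM in Cx43KO, and Rnft1, an ER ubiquitin ligase, 88.4, 126 and 71.8 CPM in Cx43FL against 15.4, 22.5 and 59.5 CPM in Cx43KO. The ribosomal protein gene Rpl30 had 148, 147 and 114 CPM in Cx43FL against 41.4, 13.5 and 97.3 CPM in Cx43KO, the prothymosin gene Ptma 153, 150.0 and 81.00 CPM in Cx43FL against 27.8, 40.3 and 64.95 CPM in Cx43KO and the histone H3.3 gene H3f3a 138, 106 and 96.2 CPM in Cx43FL against 35.1, 40.9 and 55.2 CPM in Cx43KO. These last have many processed copies in the genome, and reads mapping more than once were removed, so that their levels are uncertain. In Rpl30, Yipf4 and Rnft1, Cx43KO replicate 3 lay well above the other Cx43KO libraries.

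**Figure D5:**
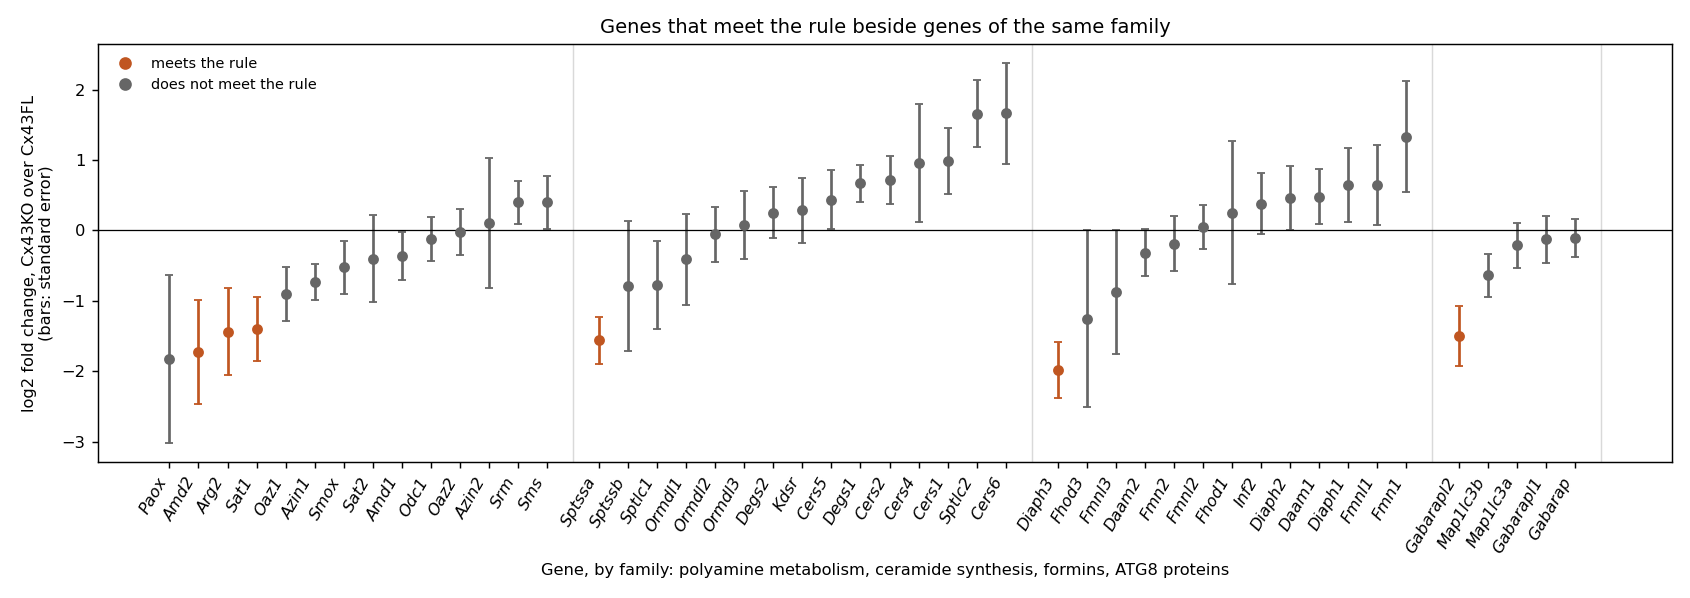
Log2 fold change of Cx43KO over Cx43FL, with its standard error, for every fitted gene of the lists of polyamine metabolism, ceramide synthesis, formins and ATG8 proteins. Orange points are members and grey points the other genes. Sptssa (-1.56), Diaph3 (-1.98) and Gabarapl2 (-1.50) are the lowest of their families, whose other genes lie on both sides of 0 except for the ATG8 proteins, and Sat1 (-1.40) lies near Amd2 and Arg2.

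Of the 24 genes that the study lists as lowered and that were found in the counts, 14 were members. That list was made from these same libraries and is not independent of the rule. All 24 had every Cx43KO library below every Cx43FL library. Of the 10 that were not members, 4 had below 5 CPM in Cx43FL (Lrrc3b, Cyp11a1, Dapk2 and Exd1) and 6 a ratio above 0.4 (Bet1, Nhlrc2, Pnrc1, Nol8 and Zfp931 among them). Beside those described above, Diaph3, a formin that nucleates actin, had 61.2, 98.5 and 53.05 CPM in Cx43FL against 16.3, 17.2 and 19.3 CPM in Cx43KO, a 2.74-fold gap. Krt10, an intermediate filament keratin, had 97.6, 112 and 55.04 CPM in Cx43FL against 19.1, 25.9 and 14.5 CPM in Cx43KO. Mapk11, the p38β kinase, had 10.96, 9.49 and 10.6 CPM in Cx43FL against 3.86, 3.13 and 1.53 CPM in Cx43KO, and Abcb9, a lysosomal peptide transporter, 42.1, 75.8 and 29.9 CPM in Cx43FL against 9.59, 17.4 and 15.1 CPM in Cx43KO. Pdcl, a chaperone for the assembly of G protein βγ subunits, had 109, 86.5 and 76.03 CPM in Cx43FL against 29.9, 36.8 and 38.3 CPM in Cx43KO, Arl6ip6 68.5, 66.8 and 78.6 CPM in Cx43FL against 28.96, 24.1 and 27.2 CPM in Cx43KO and Tigd2, a gene derived from a transposon, 32.1, 33.5 and 33.8 CPM in Cx43FL against 8.22, 12.9 and 14.8 CPM in Cx43KO. In Tigd2, Mapk11 and Arl6ip6 the Cx43FL libraries lay within a narrow range, from 32.1 to 33.8 CPM in Tigd2.

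The nearest relatives of these genes were mostly not separated. Of 13 formins, 11 reached 5 CPM and Diaph3 was the only one separated, Diaph1 having 27.4, 35.4 and 26.6 CPM in Cx43FL against 73.6, 52.3 and 14.5 CPM in Cx43KO and Diaph2 42.3, 19.1 and 36.2 CPM in Cx43FL against 51.8, 24.7 and 53.3 CPM in Cx43KO. Of 11 genes of the p38 pathway, 10 reached 5 CPM and Mapk11 was the only one separated, Mapk14, the p38α kinase, having 87.4, 52.5 and 94.9 CPM in Cx43FL against 102, 79.5 and 101 CPM in Cx43KO. Their medians of log2 fold change were 0.26 and 0.19. Of 11 keratins, 2 reached 5 CPM, Krt18 overlapping with 12.4, 0.455 and 12.8 CPM in Cx43FL against 4.48, 10.7 and 8.81 CPM in Cx43KO (median of 7 fitted genes -0.06). Of 12 phosducin and chaperonin genes, 10 reached 5 CPM and only Pdcl was separated (median -0.09), Pdcl3 having 66.6, 44.6 and 62.8 CPM in Cx43FL against 26.7, 74.4 and 55.9 CPM in Cx43KO. Of 11 Abcb and Tap transporters, 4 reached 5 CPM, and Abcb10, a mitochondrial transporter, was also lower in every Cx43KO library with 23.9, 29.4 and 24.8 CPM in Cx43FL against 11.2, 13.8 and 19.5 CPM in Cx43KO (median 0.02). Of the 15 SNAREs of the ER and Golgi, 0 were members, 5 lay lower in every Cx43KO library and 0 higher (median -0.37), against 1.31%, 9.41% and 6.83% of all 10910 genes. Of 4 death-associated kinases, 0 were members, with 1 lower and 1 higher at 5 CPM or more (median 0.06). Among 14 genes of steroid synthesis, the member was Srd5a1, the steroid 5α-reductase, with 10.3, 29.3 and 12.1 CPM in Cx43FL against 6.91, 9.76 and 3.14 CPM in Cx43KO, and 2 of 8 lay lower and 0 higher (median -0.10).

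Further members belonged to pathways whose lists were written after the members were seen, so that the number of members in them is a description of the choice. Hes1, a transcriptional repressor and Notch target, had 96.1, 102 and 60.4 CPM in Cx43FL against 6.48, 28.6 and 33.7 CPM in Cx43KO. Of 21 Notch pathway genes, 14 reached 5 CPM, 1 was a member, 4 lay lower in every Cx43KO library and 2 higher (median -0.11). Hes5 and Hey1, also targets of Notch, lay lower with 108, 79.3 and 109 CPM in Cx43FL against 16.6, 54.9 and 75.6 CPM in Cx43KO and 700.1, 435 and 737 CPM in Cx43FL against 292, 387 and 425 CPM in Cx43KO. The receptors Notch1 and Notch2 were the 2 that lay higher, with 19.1, 15.7 and 26.5 CPM in Cx43FL against 32.6, 29.6 and 35.2 CPM in Cx43KO and 20.4, 28.5 and 23.5 CPM in Cx43FL against 31.6, 30.5 and 54.8 CPM in Cx43KO. 

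Retinoid genes held 3 members among 20 listed. Rarb, the retinoic acid receptor β, had 37.3, 28.8 and 33.4 CPM in Cx43FL against 3.49, 16.6 and 6.68 CPM in Cx43KO, Dhrs3, a retinal reductase, 75.7, 116 and 79.1 CPM in Cx43FL against 18.4, 36.4 and 51.4 CPM in Cx43KO, and Rpe65, a retinoid isomerase, 3.58, 3.703 and 8.15 CPM in Cx43FL against 0.623, 3.25 and 0 CPM in Cx43KO. Rarb overlaps Top2b in the annotation. The receptor Rara overlapped with 29.8, 10.3 and 23.5 CPM in Cx43FL against 17.1, 19.9 and 4.98 CPM in Cx43KO. Of the 14 genes at 5 CPM or more, 4 lay lower and 1 higher in every Cx43KO library (median 0.05).

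Fos, a subunit of the AP-1 factor, had 15.7, 36.4 and 12.6 CPM in Cx43FL against 3.86, 8.51 and 6.31 CPM in Cx43KO. The other immediate early genes did not share its place: of 16 listed, 7 reached 5 CPM, 1 was a member, 0 others were separated, and the median was 0.07. Jun had 52.1, 31.4 and 51.1 CPM in Cx43FL against 53.3, 36.1 and 36.1 CPM in Cx43KO, and Egr1 14.7, 23.8 and 38.1 CPM in Cx43FL against 122, 23.2 and 37.3 CPM in Cx43KO. Hdac4, a class II histone deacetylase, had 55.5, 57.5 and 72.8 CPM in Cx43FL against 20.4, 39.7 and 9.21 CPM in Cx43KO, and of 11 deacetylases 10 reached 5 CPM and only Hdac4 was separated (median -0.26). Another protein-coding transcript of Hdac4 overlapped, with 73.4, 17.3 and 52.5 CPM in Cx43FL against 27.2, 30.2 and 17.4 CPM in Cx43KO.

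Genes of cysteine, glutathione and selenoprotein metabolism held 5 members among 21, all others at 5 CPM or more overlapping (median -0.05). Beside Cth these were Chac2, which breaks down glutathione, with 30.8, 16.2 and 23.8 CPM in Cx43FL against 2.93, 13.02 and 11.4 CPM in Cx43KO, Gpx7, an ER peroxidase, with 7.101, 14.7 and 13.05 CPM in Cx43FL against 0.685, 5.05 and 6.13 CPM in Cx43KO, Txnrd2, the mitochondrial thioredoxin reductase, with 8.93, 16.8 and 13.8 CPM in Cx43FL against 2.304, 4.63 and 8.75 CPM in Cx43KO, and Sephs2, which makes the selenium donor, with 10.1, 7.602 and 4.97 CPM in Cx43FL against 3.61, 2.25 and 1.35 CPM in Cx43KO. Txnrd2 was barely separated. Gclc, the catalytic subunit for glutathione synthesis, overlapped with 129, 121 and 105 CPM in Cx43FL against 122, 106 and 121 CPM in Cx43KO.

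The list of mitochondrial transcription and tRNA modification also held 5 members, not all of which are given here. Of its 19 genes, 18 reached 5 CPM, 7 lay lower and 0 higher (median -0.47). The shares of all 10910 genes were 1.31% for members, 9.41% for lower and 6.83% for higher. Mterf2, a transcription termination family protein, had 30.8, 40.3 and 18.8 CPM in Cx43FL against 10.1, 5.09 and 12.1 CPM in Cx43KO. Tfb1m, a methyltransferase of mitochondrial ribosomal RNA, had 8.05, 14.4 and 15.8 CPM in Cx43FL against 1.68, 7.89 and 5.33 CPM in Cx43KO, Gtpbp3, a tRNA modifying enzyme, 10.8, 6.82 and 8.87 CPM in Cx43FL against 1.06, 3.004 and 5.87 CPM in Cx43KO, and Aars2, the mitochondrial alanyl-tRNA synthetase, 5.48, 8.45 and 2.98 CPM in Cx43FL against 1.74, 1.38 and 0.288 CPM in Cx43KO. The 2 that lay lower without being members were Mto1 and Mtif3, the latter with 41.7, 91.8 and 42.3 CPM in Cx43FL against 15.6, 33.5 and 26.4 CPM in Cx43KO. Tfam and Polrmt, which start mitochondrial transcription, overlapped.

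In DNA repair, Fancf and Fancg of the Fanconi anaemia core complex had 6.02, 9.68 and 5.96 CPM in Cx43FL against 0.249, 0.793 and 5.18 CPM in Cx43KO and 11.8, 12.3 and 10.9 CPM in Cx43FL against 1.49, 6.301 and 1.09 CPM in Cx43KO. Atrip, the partner of the kinase Atr, had 17.7, 30.99 and 19.01 CPM in Cx43FL against 1.68, 11.4 and 12.6 CPM in Cx43KO. Of 19 genes listed, 14 reached 5 CPM, 3 were members and the others overlapped (median -0.36). Atrip and Trex1 overlap in the annotation, as do Tiam2 and Tfb1m, so that these members may share reads.

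Genes of glycan synthesis held Dpagt1, which starts the dolichol-linked glycan, with 10.6, 25.7 and 17.8 CPM in Cx43FL against 2.49, 4.38 and 8.93 CPM in Cx43KO, Alg13 with 6.49, 12.7 and 13.2 CPM in Cx43FL against 1.49, 5.42 and 2.76 CPM in Cx43KO, and the O-mannose kinase Pomk with 24.1, 63.8 and 17.4 CPM in Cx43FL against 2.62, 14.4 and 13.5 CPM in Cx43KO. Of 21 genes, 20 reached 5 CPM, 4 lay lower and 0 higher (median -0.12). Extl1 and Ndst3 of heparan sulfate synthesis had 24.5, 38.5 and 28.7 CPM in Cx43FL against 1.68, 23.9 and 6.02 CPM in Cx43KO and 12.04, 23.5 and 11.7 CPM in Cx43FL against 3.99, 9.97 and 1.64 CPM in Cx43KO, 11 of 15 genes reached 5 CPM, 2 lay lower and 1 higher (median 0.13). Pard3, the scaffold of the cell polarity complex, had 35.4, 81.5 and 34.97 CPM in Cx43FL against 3.74, 22.8 and 12.96 CPM in Cx43KO, and Tiam2, a Rac activator, 21.2, 26.9 and 23.4 CPM in Cx43FL against 15.4, 5.97 and 5.499 CPM in Cx43KO. Of 10 polarity genes 9 reached 5 CPM, 3 lay lower and 0 higher (median -0.17). Cdc42, which acts in this complex, overlapped with 666, 506 and 641 CPM in Cx43FL against 408, 571 and 534 CPM in Cx43KO. The 3 genes of the Zw10 complex had a median of -0.88.

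Outside the rule, the members differed in gene structure from the 10910 genes in the median, with ranges that overlap widely. Their transcripts had a median length of 2369 bases (quartiles 1545 and 3416) and 5 exons (3 and 10), against 3229 bases (2048 and 4751) and 9 exons (5 and 15) in the 10910 genes, and 4023 bases and 11 exons in the 379 genes higher in Cx43KO. The median length of the members was smaller in each class of level: 2192 against 3044 bases between 5 and 10 CPM, 2636 against 3260 between 10 and 50 CPM, and 2094 against 3285 at 50 CPM or more. Single-exon transcripts numbered 10 (6.99%, against 2.19% of the 10910 genes). The GC content was 50.7% against 49.9%, and 140 of 143 members were protein-coding. With loess offsets on GC content and length, the median log2 fold change of the members was -1.63. Since the members were chosen by their ratio in these same libraries, nothing is read from this value. An effect of length or GC content was not tested.

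Members were found on all autosomes and the X chromosome, with 8 on the X (5.59% of members, against 3.47% of the 10910 genes), Sat1 and Alg13 among them. They were not close together as a rule: 15 pairs lay within 1000 kb of each other. Another gene overlapped 72 members in the annotation, and, as the counting is not stated to have used strand, reads of antisense partners cannot be told apart. Of 65 members that had other transcripts at 5 CPM or more, 164 such transcripts were counted and 130 had every Cx43KO library below every Cx43FL library. Pard3 alone held 18 of the 130. All such transcripts were separated in 48 of the 65 members, and in the rest at least 1 overlapped. The share among other transcripts of all genes was not taken, so nothing is read from these counts. Transcripts of a gene share exons and can share reads, so that these are not independent measurements.

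Near the limits of the rule, genes passed or failed by small amounts. Just inside the ratio were Zfp428, Lysmd2 and Dnajc12 (0.398 to 0.399), and just outside Dexi, Mgme1 and Rasgrp3 (0.401 to 0.402). Just inside the level were Shkbp1, Bmp3 and Rpe65 (5.07 to 5.14 CPM), and just outside Tcim, Fkbpl and Exoc3l (4.87, 4.845 and 4.596 CPM). The least separated members were Ccdc38, Txnrd2 and Tfb1m, whose lowest Cx43FL library was 1.01 to 1.02 times the highest Cx43KO library, while in Hmgb2, Tmem100 and H2-T24 it was 0.997, 0.985 and 0.977 times.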

How the data were processed

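Astrocyte polysomal RNAs of 3 Cx43FL and 3 Cx43KO hippocampal samples were amplified (NuGEN Ovation) and sequenced. The authors filtered and mapped the reads to mm10 with STAR, removed reads mapping more than once, and deposited raw counts per Ensembl transcript made with HTSeq (0.5.3 in the submitters' processing notes). Genotype and replicate number came from the sample titles.

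Transcripts were matched by identifier to GENCODE annotation of GRCm38: 73157 of 75466 matched, and the 2309 others held 1.60% to 1.78% of the counts. Transcript totals were 33423491 to 77030398 per library. The files hold counts per transcript and not per gene, hence 1 transcript per gene was used. No pair of libraries agreed within sampling noise.

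Counts were fitted with edgeR 4.0.16 in R 4.3.3 (TMM, filterByExpr by genotype, quasi-likelihood test with Benjamini-Hochberg adjustment), which was tested on simulated data. A standard error is the log2 fold change, without sign, divided by the root of its F statistic. The settings tried besides were DESeq2 1.42.0 with and without its prior, other scaling factors and filters, summed transcripts, loess offsets, the replicate number as a block, other limits of the rule and leaving out each library. Python 3.11.15, numpy 2.4.6, pandas 2.3.3 and matplotlib 3.10.9 were used.

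The members and lists were chosen with earlier results of these data known, and 15 of the 29 family and pathway lists were written after the members were seen. The genes named are the 20 members of lowest ratio, the 10 with most reads, those the study lists, those in a list with their relatives, the genes nearest each limit, and Gja1. The symbols of some listed genes were matched to current ones by hand. Some genes are not reported here, and the other measurements of the study were not used.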

Additional observations from a re-analysis of the deposited data

How the results depend on the processing

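The number of genes that met the rule, 143, was 129 with TMM-scaled CPM, 133 with CPM scaled by DESeq2's size factors (132 of them members), 122 when the transcripts of a gene were summed (99 of them members) and 100 with at least 10 CPM in Cx43FL. It moved to 242 with at least 1 CPM, to 289 with a ratio of at most 0.5 and to 34 with a ratio of at most 0.25. With libraries left out in turn it was 170 to 347. When each Cx43KO library had to lie only below the Cx43FL library of the same number, a setting chosen after seeing the data, 182 genes met the rule, and turned around it gave 379.

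The median log2 fold change of the members, -1.62, was between -1.83 and -1.19 under all alternatives, the weakest being DESeq2 with its normal prior. The number of members called lower was 0 in all edgeR settings except those with loess offsets, for which it was not counted. It was 16 and 14 with DESeq2 without and with its prior. Of 1092 alternative log2 fold changes of the 69 members in named lists or ranks, 47 moved by more than 1 standard error. The same members, chosen by this contrast, were refitted each time. Nothing is therefore read from the sign or size of the median or of the single values.

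The sample titles give replicate numbers but no pairing of the genotypes. For each gene the mean of its genotype was subtracted from the log2 CPM. The remaining deviations of same-numbered libraries correlated at -0.041 to 0.0016, and those of differently numbered libraries at -0.014 to 0.037. The log2 CPM themselves correlated at 0.80, 0.84 and 0.88 between same-numbered libraries 1 to 3. In the fit with a replicate block the median was -1.76, and 0 members were called.

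At 3 libraries per genotype and a biological coefficient of variation of 0.600 over genes, and with 8 members at or under 3 counts in a Cx43KO library, the ratios of single low genes are poorly determined. Counts on 1 transcript per gene, overlapping genes and near-identical copies add to this.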
